A study of Mus musculus with 4 samples.

Results

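The genes described here encode the proteasome, the protease that degrades ubiquitin-tagged proteins. They were taken by name from a deposited table of 16442 mouse genes: every symbol of the Psma, Psmb, Psmc or Psmd series that carries a number, without the immunoproteasome genes Psmb8, Psmb9 and Psmb10. Of the 36 symbols that matched, Psmc3ip was left out, because it encodes a meiotic recombination factor and no proteasome subunit. The remaining 35 genes comprise 15 of the 20S core particle (8 of the alpha ring and 7 of the beta ring) and 20 of the 19S regulatory particle.

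The core particle is a barrel of stacked rings. Alpha subunits form the outer rings and gate the entry of substrates, and beta subunits form the inner rings, some of which carry the proteolytic sites. The regulatory particle caps the barrel: its base holds a ring of ATPases that unfold substrates and scaffold proteins that bind ubiquitin, and its lid holds the enzyme that removes ubiquitin chains. Subunits stand in fixed copy numbers in the finished complex, and blood cancers with high rates of protein synthesis are known to depend on it.

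The study profiled ribosome footprints, the mRNA stretches that ribosomes shield from nuclease, in leukaemia stem cells, the cells that propagate a leukaemia, together with input RNA of the same lysates. The cells came from the bone marrow of leukaemic C57BL/6 mice, and each group has 2 libraries: WT, and KO for the zinc finger transcription factor Rreb1. How the leukaemia was induced, how Rreb1 was deleted and in which cells, and which animals gave each library are not given in the sources used here. KO replicate 2 has Rreb2-KO in its genotype field; its title places it in the KO group, which was followed.

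Values are given for WT replicates 1 and 2 and then KO replicates 1 and 2, in that order, unless a sentence says otherwise. Footprint and RNA levels are in RPKM, reads per kilobase, scaled to the library's assigned reads. Translational efficiency (TE) is the footprint value over the RNA value of one gene in one library. Differences are KO minus WT on the log2(RPKM + 1) scale, which understates those of low genes, with the standard error (SE) of the limma fit over 2 libraries per group. A gene is said to have risen or fallen only where the limma p-value, adjusted by Benjamini-Hochberg over 6387 tested genes, was under 0.05. With 2 libraries against 2, an exact permutation test of a single value cannot go below 0.333. Where a fit leaves out 1 library, the spread among libraries comes from the remaining pair of the other group alone, and the same spread is taken to hold for the single library left.

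The libraries held 274183 to 878068 assigned footprint reads, and the KO-labelled libraries were the shallowest. Across tested genes, which are not independent replicates, Pearson's r of footprints was 0.94 for the WT pair of libraries and 0.782 for the KO-labelled pair; in RNA it was 0.997 and 0.996. Rreb1 itself did not drop under the KO label: it had 14.1, 12.8, 12.9 and 8.19 RPKM in footprints (log2 difference -0.36 ± 0.39, limma adjusted p = 0.672), and its RNA rose (0.81 ± 0.09, limma adjusted p = 0.000283). Its TE was 3.48, 3.25, 1.95 and 1.16, lower in both KO-labelled libraries by a difference that did not pass (-1.16 ± 0.39, limma adjusted p = 0.343). Each direction below therefore rests on the labels. Of the defining genes of haematopoietic cells and progenitors, 9 of 9 had RNA, among them Ptprc at 28.5 to 31.2 RPKM in all 4 libraries. Other markers differed between the groups. Cd34 RNA was 4.41, 4.71, 50.5 and 49.8 RPKM, Kit RNA 1.97, 2.32, 7.36 and 7.15 RPKM, and Mpo RNA 371, 387, 192 and 166 RPKM. Of the 9 genes, 5 were higher and 4 lower in both KO-labelled libraries, beside 44.4% and 37.6% of all tested genes.

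Proteasome genes made up 0.588%, 0.631%, 0.772% and 0.535% of the assigned footprint reads, from 5164, 4140, 2811 and 1466 reads. In KO replicate 1, where the share was highest, Psmd11 alone gave 692 of the 2811 reads. The median gene of the 35 had 145, 109, 50 and 40 reads, so counting error was largest in the KO-labelled libraries. Footprints were found in every library for 34 of the 35 genes, the exception being Psma8 in KO replicate 2. The 33 genes that passed the filter on low counts were 13 of the 20S, with Psma3 and Psma8 below it, and all 20 of the 19S. Each of the 33 reached the filter in at least 1 library of each group, and 30 reached it in all libraries.

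No proteasome gene passed the test in footprints (0 of 33, where 1.03% of all tested genes passed, 0.579% higher and 0.454% lower) or in TE (0 of 33, where the share over all genes was 0%). At an unadjusted limma p under 0.05, 4 genes had lower footprints and 0 had higher ones; over all tested genes these shares were 12.4% and 5.84%. In TE the same 4 genes, Psma2, Psmb2, Psmb4 and Psmd8, were lower at that level and 0 were higher, against 9.97% and 3.02% of all genes. RNA passed in 13 of 33, of which 9 rose and 4 fell; over all tested genes 33.1% rose and 27.7% fell, so the share of proteasome genes that passed was below the 60.7% of all genes.

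**Figure D1:**
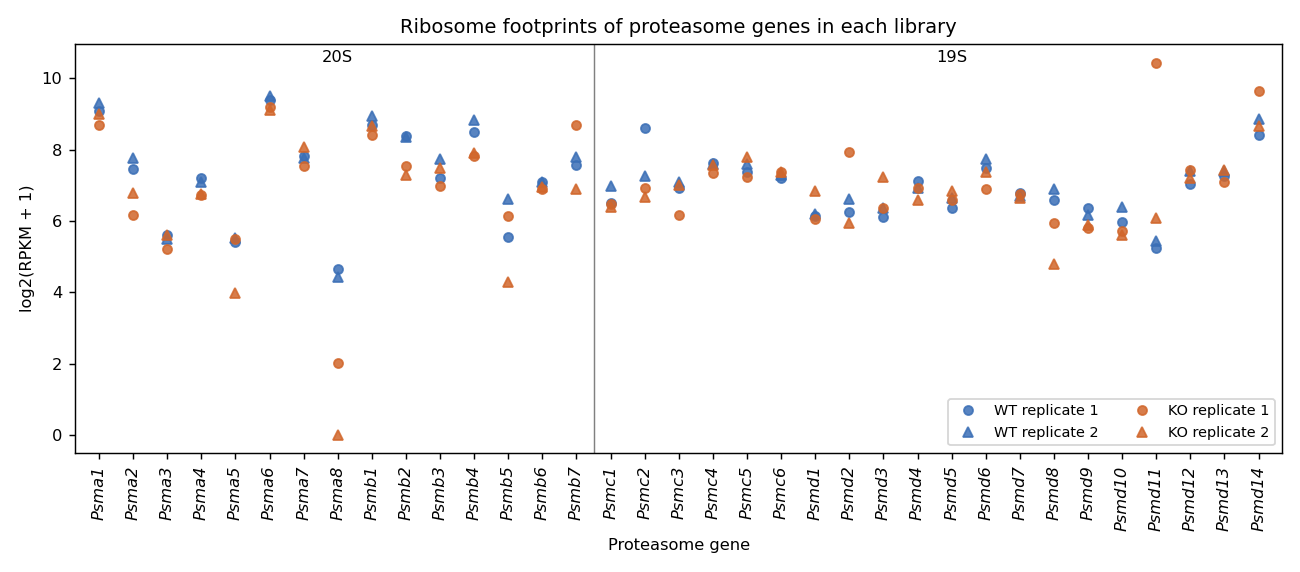
Footprint levels of the 35 proteasome genes, as log2(RPKM + 1) on the vertical axis, with 1 point for each library (blue for WT, orange for KO-labelled; circles for replicate 1, triangles for replicate 2). Psmd11 in KO replicate 1 stands apart at 1393 RPKM, and Psma8 has no footprints in KO replicate 2.

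The alpha ring had RNA changes in both directions. Psma6, an alpha subunit and the 20S gene with the highest mean footprint level (634 RPKM), had RNA levels of 241, 241, 185 and 175 RPKM. Both KO-labelled libraries lay below both WT libraries, and Psma6 RNA fell (log2 difference -0.42 ± 0.07, limma adjusted p = 0.00128). Its footprints were 675, 725, 588 and 549 RPKM, also without overlap between the groups, but the difference of -0.30 ± 0.25 did not pass (limma adjusted p = 0.571).

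Psma7 RNA stood at 213, 208, 292 and 272 RPKM and rose by 1.34-fold (0.42 ± 0.07, limma adjusted p = 0.00167). Its footprints of 227, 219, 185 and 269 RPKM overlapped between the groups. Psma4 RNA rose slightly, from 61.9 and 61.8 to 76.7 and 67.2 RPKM (0.21 ± 0.08, limma adjusted p = 0.0497), a call at the edge of the threshold that was lost under 8 of the alternative settings tried, among them the fits without either WT library. Psma7 and the germ cell gene Psma8 are close paralogues, and reads that both share cannot be told apart in these values.

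Psma2, another gating subunit, had the largest footprint difference of the tested 20S genes. Its footprints were 175, 215, 70.4 and 109 RPKM, and its TE was 3.01, 3.73, 1.19 and 1.96. Both KO-labelled libraries were lower in both measures, while RNA was 57.4, 56.9, 59 and 55.3 RPKM and overlapped. The footprint difference was -1.14 ± 0.34 (limma unadjusted p = 0.0222, adjusted p = 0.198), and it passed only in the fit without KO replicate 2 (-1.45 ± 0.25, adjusted p = 0.0353).

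Among the other alpha genes, Psma1 was high in footprints at 544, 637, 411 and 508 RPKM, with no overlap between the groups and a difference of -0.37 ± 0.27 (limma adjusted p = 0.531). Psma5 was the lowest tested 20S gene, at 41.3, 45.1, 44.3 and 14.7 RPKM, where only KO replicate 2 was low, from 3 reads. Psma3, below the filter by a read count that may be too small by a whole factor, had footprints of 47.6, 43.8, 35.9 and 47.6 RPKM and RNA of 71.6, 71.9, 81.8 and 72.8 RPKM. In a fit with no filter on low counts, its differences were -0.14 ± 0.21 in footprints and 0.10 ± 0.07 in RNA, and neither passed (limma adjusted p = 1 and 0.323).

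Psma8, whose protein replaces the Psma7 subunit in the proteasome of germ cells, was the lowest proteasome gene and the one with the largest RNA difference. Its RNA was 9.16 RPKM in each WT library and 3.05 and 3.79 RPKM in the KO-labelled ones. In the fit with no filter on low counts the RNA difference was -1.21 ± 0.11 (limma adjusted p = 0.00745). Footprints were 24.2 and 20.5 RPKM in WT, against 3.07 and 0 RPKM. These rest on 31 reads in WT and 1 read in the KO-labelled libraries, a ratio per assigned read of 12.9 with an exact 95% interval of 2.15 to 526 that covers counting error only, and the fitted difference did not pass with no filter (limma adjusted p = 0.465).

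In the beta ring, RNA rose for 4 of 7 genes and fell for 0, where 33.1% of all tested genes rose and 27.7% fell. Psmb3, a structural beta subunit, had the largest RNA difference of the tested 20S genes, at 183, 175, 245 and 247 RPKM (0.46 ± 0.07, limma adjusted p = 0.000798). Psmb4 RNA was 41, 40.1, 52.2 and 51.2 RPKM (0.34 ± 0.06, adjusted p = 0.00269), and Psmb1 RNA was 48.5, 48.3, 62.4 and 55.3 RPKM (0.28 ± 0.08, adjusted p = 0.0165). For these 3 genes both KO-labelled libraries lay above both WT libraries in RNA. The call of Psmb1 was lost with no filter and without either WT library.

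Footprints did not follow in the same direction. Those of Psmb1 and Psmb3 differed by -0.28 ± 0.27 and -0.23 ± 0.35 (limma adjusted p = 0.621 and 0.759), and the Psmb3 groups overlapped. Psmb4 footprints were 357, 454, 225 and 239 RPKM, a difference of -0.79 ± 0.27 (limma unadjusted p = 0.0358, adjusted p = 0.239). Psmb2 RNA was the highest of the core genes at 291, 294, 353 and 310 RPKM, and its difference did not pass (0.18 ± 0.08, adjusted p = 0.101). Psmb2 footprints were 332, 329, 187 and 157 RPKM (-0.94 ± 0.26, unadjusted p = 0.0166, adjusted p = 0.187). In TE, Psmb4 went from 8.51 and 11.1 to 4.25 and 4.61, and Psmb2 from 1.14 and 1.12 to 0.53 and 0.509. In footprints and TE the groups of Psmb4 and Psmb2 did not overlap, and no difference in these measures passed after adjustment.

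Of the 3 catalytic subunits, only Psmb6 passed in RNA. Psmb6, which carries the caspase-like site, rose in RNA, from 200 and 199 to 286 and 252 RPKM (0.43 ± 0.08, limma adjusted p = 0.00302), while its footprints of 136, 137, 119 and 123 RPKM differed by -0.17 ± 0.26 (adjusted p = 0.764). Psmb5, the chymotrypsin-like subunit that proteasome inhibitor drugs bind, had RNA of 189, 173, 190 and 154 RPKM and footprints of 46, 98.1, 69.4 and 18.4 RPKM. Its groups overlapped in both, and its footprint difference of -0.89 ± 0.75 was 0.04 without KO replicate 2, which held 4 reads.

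Psmb7, the trypsin-like subunit, had the least RNA of the beta ring, at 10, 10.3, 11.2 and 9.06 RPKM, yet footprints of 190, 222, 416 and 119 RPKM. Its TE of 17.4, 19.6, 34.3 and 11.9 was therefore the highest of the 20S in each library. That of Psmb5, at 0.248, 0.57, 0.368 and 0.125, was the lowest in 3 of 4 libraries, with Psma5 below it in WT replicate 2 (0.536). The Psmb7 groups overlapped in footprints, where the difference of 0.11 ± 0.64 turned to -0.79 without KO replicate 1. The RefSeq table names processed or other pseudogenes of Psma5, Psmb5, Psmb6 and Psmb7 (6 in all, of which 0 have an entry of their own in the deposited table), so levels of these 4 genes depend on how shared reads were counted.

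**Figure D2:**
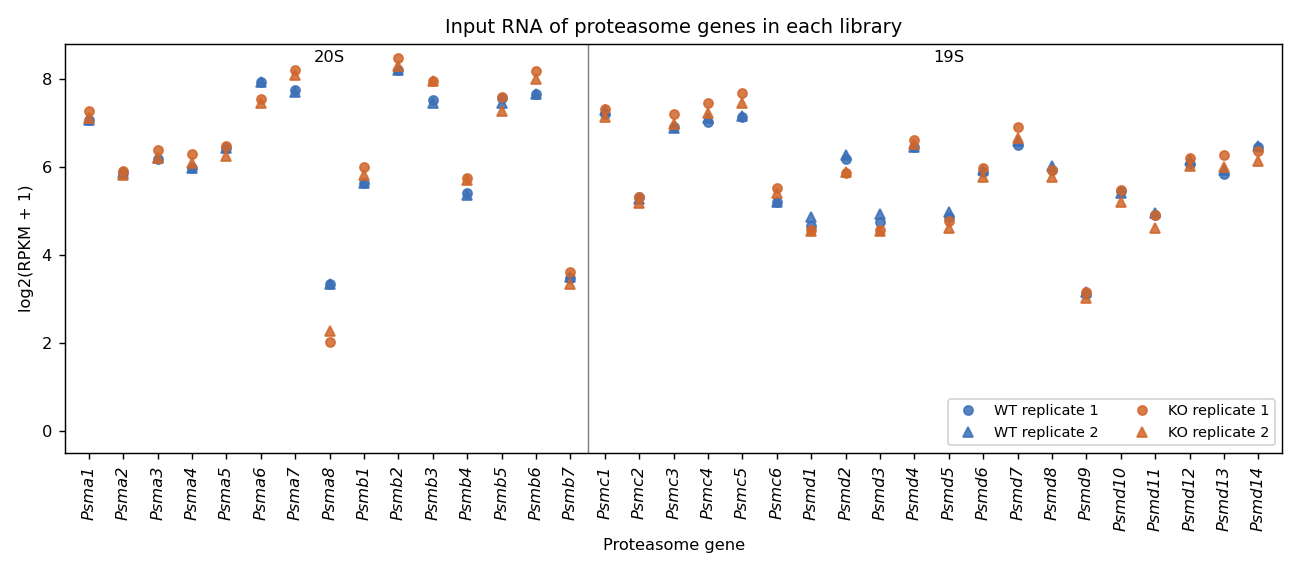
Input RNA of the same 35 genes, as log2(RPKM + 1), drawn as in the plot of footprint levels. Replicates lie close together, Psmb7 and Psmd9 are low among the tested genes, and the KO-labelled libraries are below WT for Psma6 and above it for Psmb3.

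In the 19S base, 3 of the 6 ATPase genes rose in RNA and 0 fell, beside the same shares of all tested genes (33.1% and 27.7%). Psmc5 had 140, 141, 205 and 175 RPKM (0.43 ± 0.09, limma adjusted p = 0.00435). Psmc6 had 35.6, 35.9, 45.1 and 41.5 RPKM (0.27 ± 0.07, adjusted p = 0.0126), and Psmc4 had 128, 136, 175 and 148 RPKM (0.29 ± 0.09, adjusted p = 0.0296). In each of the 3, both KO-labelled libraries were above both WT libraries in RNA. The call of Psmc6 was lost without either WT library, and that of Psmc4 without either WT library, without KO replicate 1, with no filter, with quantile normalization and with the replicate block.

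Their footprints were 148 to 166 RPKM for Psmc6, 149 to 220 RPKM for Psmc5 and 162 to 196 RPKM for Psmc4. Psmc1 footprints were 90.6, 125, 87.4 and 82.9 RPKM and those of Psmc3 120, 135, 70.7 and 128 RPKM, with limma adjusted p of 0.621 and 0.609. All 6 ATPase genes had a TE difference below 0, from -1.08 to -0.16, and 0 of them passed. Over all tested genes, 3805 of 6387 had a TE difference below 0, with a median of -0.15.

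Psmc2 was set apart by 1 library. Its footprints were 392 RPKM in WT replicate 1 and 154, 121 and 102 RPKM in the others, from 491, 144, 63 and 40 reads, while its RNA was 38.8, 37.5, 38.6 and 35 RPKM. The footprint difference of -1.13 ± 0.51 did not pass (limma adjusted p = 0.338).

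The scaffold and receptor genes of the base differed in RNA by -0.36 to 0.12. Psmd2, a scaffold on which ubiquitin-like domains dock, fell in RNA from 71.7 and 76.6 to 56.6 and 58.3 RPKM (-0.36 ± 0.07, limma adjusted p = 0.00281), but not in the fit without WT replicate 2 (-0.31). Psmd1, the other large scaffold, had RNA of 24, 28, 22.6 and 22.2 RPKM, whose groups did not overlap and whose difference of -0.20 ± 0.09 did not pass (adjusted p = 0.0812). Psmd4, a ubiquitin receptor, had RNA of 85.8, 85.9, 97.2 and 89.9 RPKM and footprints of 138, 121, 121 and 94.6 RPKM, with differences of 0.12 ± 0.07 and -0.27 ± 0.29 (adjusted p = 0.155 and 0.662).

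Footprints of both scaffolds were high in a single KO-labelled library, and not the same one. Psmd2 had 75.6, 97.3, 244 and 60.5 RPKM, so only KO replicate 1 was high, and its difference of 0.50 ± 0.71 became -0.50 when that library was left out. With KO replicate 1 as the only KO-labelled library it was 1.50 and passed (limma adjusted p = 0.0373), with the spread taken from the WT pair. Psmd1 had 69.3, 73, 65.3 and 114 RPKM, with only KO replicate 2 high, and its difference of 0.27 ± 0.37 became -0.12 without it.

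Of the 8 lid genes, 0 rose and 1 fell in RNA, where 33.1% of all tested genes rose and 27.7% fell. The one that fell was Psmd3, a scaffold subunit, from 25.9 and 29.6 to 22.6 and 22.1 RPKM (-0.30 ± 0.08, limma adjusted p = 0.0164), a call lost with no filter, without WT replicate 2 and without KO replicate 2. Psmd14, the deubiquitinase that cuts ubiquitin chains from substrates, had RNA of 86.9, 87.1, 80.9 and 69.4 RPKM, lower in both KO-labelled libraries by a difference that did not pass (-0.21 ± 0.08, adjusted p = 0.0601; it passed with quantile normalization, without KO replicate 1 and with a crossed replicate block). Psmd7, its partner subunit, had 89.8, 95.4, 119 and 99.3 RPKM and Psmd13 had 56.4, 59.6, 76 and 62.6 RPKM, both higher in the KO-labelled libraries without passing (adjusted p = 0.0692 and 0.0602), although both passed without KO replicate 2 and with the crossed replicate block.

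Psmd14 was the highest 19S gene in footprints (mean 501 RPKM), at 337, 460, 803 and 404 RPKM. Its footprint difference of 0.53 ± 0.43 did not pass (limma adjusted p = 0.56), and the KO-labelled libraries overlapped the WT ones. Psmd8, a scaffold subunit that joins the lid late, had the largest negative footprint difference of the 19S: its footprints of 94.4, 119, 60.7 and 26.9 RPKM were lower in both KO-labelled libraries, with the lowest value from 8 reads. The difference was -1.37 ± 0.47 (unadjusted p = 0.0364, adjusted p = 0.241), and it passed only without KO replicate 1 (-1.94 ± 0.28, adjusted p = 0.0452). Psmd8 RNA of 60.2, 63.5, 59.8 and 53.1 RPKM gave a difference of -0.13 ± 0.08 (adjusted p = 0.183).

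Psmd11, the lid scaffold that bridges to the ATPase ring, had by far the highest single value. In footprints it had 36.7, 42.5, 1393 and 66.8 RPKM, which rest on 44, 38, 692 and 25 reads. KO replicate 1 was 20.8 times the next highest library, a ratio of at least 20 that this library showed for 10 of the 6387 tested genes (0.157%). RNA showed no such height, at 29.1, 29.7, 28.9 and 23.2 RPKM.

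The fitted footprint difference for Psmd11 was 2.93 ± 1.44 (limma adjusted p = 0.371). Leaving out KO replicate 1 brought it to 0.74. With that library as the only KO-labelled one it was 5.11 ± 0.24 and passed (adjusted p = 0.0086), with the spread taken from the WT pair. Both KO-labelled libraries lay above both WT libraries, but the size of the difference rests on 1 library.

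The remaining lid genes did not pass in footprints. Psmd12 had 131, 169, 173 and 147 RPKM, Psmd13 had 153, 169, 135 and 172 RPKM, and Psmd7 had 109, 104, 108 and 98.5 RPKM, with limma adjusted p of 0.874, 0.901 and 0.941. Psmd6 had 177, 213, 118 and 166 RPKM, lower in both KO-labelled libraries (-0.47 ± 0.31, adjusted p = 0.487). Psmd3 had 68.5, 81.6, 81 and 149 RPKM, with only KO replicate 2 high (0.55 ± 0.40, adjusted p = 0.517).

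The 3 assembly chaperones of the base, which leave before the particle is complete, were low. Psmd5 fell in RNA, from 28.2 and 30.2 to 26.1 and 23.2 RPKM (-0.24 ± 0.08, limma adjusted p = 0.0373). The call was lost without WT replicate 1, without WT replicate 2, without KO replicate 2, with no filter, with median centring and with the replicate block. Psmd5 footprints of 81.3, 98.8, 94.5 and 113 RPKM overlapped between the groups, with a difference of 0.21 ± 0.29.

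Psmd10, known as the oncoprotein gankyrin, had the lowest mean footprint level of the 19S (61.2 RPKM), at 62.4, 83.6, 51.5 and 47.4 RPKM. Both KO-labelled libraries were lower, and the difference of -0.54 ± 0.31 did not pass (limma adjusted p = 0.431). By single library, Psmd10 was the lowest 19S gene only in KO replicate 1. Psmd11 was lowest in both WT libraries and Psmd8 in KO replicate 2. Psmd9 had the least RNA of the 19S, at 7.65, 7.83, 7.92 and 7.05 RPKM, and footprints of 80.9, 71.5, 55.2 and 58.7 RPKM (-0.41 ± 0.28, adjusted p = 0.497). Its TE of 9.47, 8.21, 6.31 and 7.41 was above that of most 19S genes in every library, as far as levels of TE can be set side by side between genes whose RNA was counted over a length that is not given.

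**Figure D3:**
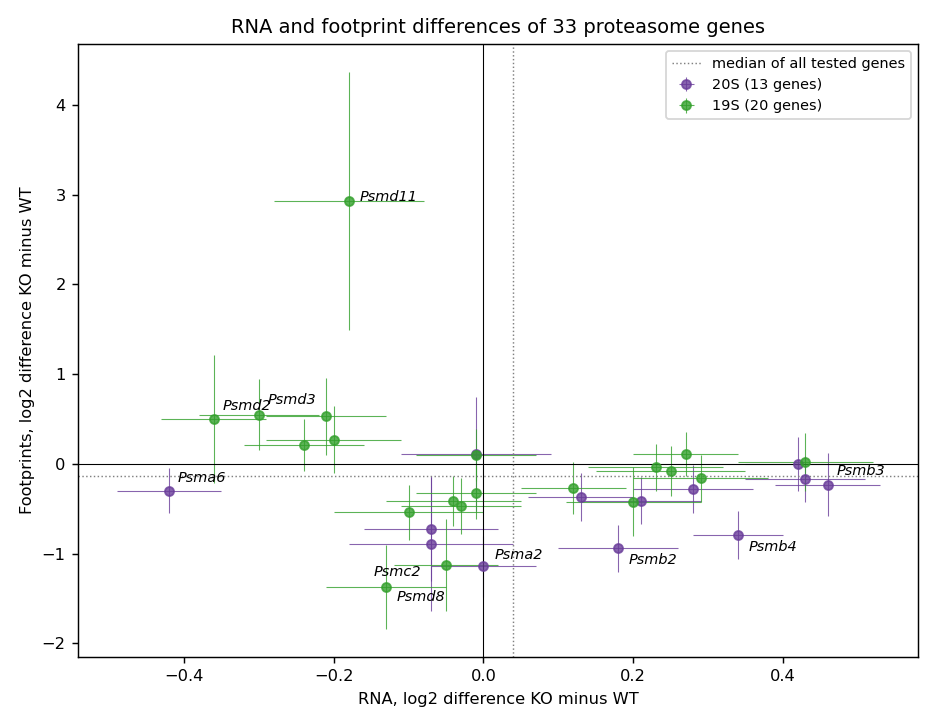
KO minus WT differences of the 33 tested genes on the log2(RPKM + 1) scale, RNA on the horizontal and footprints on the vertical axis, with standard errors as bars; 20S genes are purple and 19S genes green. Dotted lines mark the medians of all tested genes, 0.04 in RNA and -0.13 in footprints, and Psmd11 lies apart at 2.93 in footprints.

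The medians of core and regulatory genes lay on opposite sides of 0 in RNA and on the same side in footprints and in TE. In RNA, 6 of 13 core genes rose and 1 fell, with a median difference of 0.18, whereas 3 of 20 regulatory genes rose and 3 fell, with a median of -0.04. Over all tested genes 33.1% rose and 27.7% fell, with a median of 0.04. Without KO replicate 2 the regulatory median was 0.06, and with quantile normalization the core median was 0.05. In footprints the medians were -0.37 for the core and -0.06 for the regulatory particle, beside -0.13 over all genes. With quantile normalization, which brought the median of all genes to -0.02, these became -0.20 and 0.05, so the sign for the regulatory particle flipped. The medians in TE were -0.62 and -0.32, beside -0.15 over all genes. No test was made of a difference between the particles, because the genes were chosen with results of these data known.

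Both KO-labelled libraries lay below both WT libraries in footprints for 8 of 13 core genes and 8 of 20 regulatory genes, where 32.1% of all tested genes did so. They lay above both WT libraries for 0 and 2, where 20.4% of all genes did so; the 2 were Psmd11 and Psmc6. In TE the counts below were 9 of 13 and 9 of 20, against 32.3% of all genes, and those above were 1 (Psma6) and 4, against 15.6%. In RNA, 8 of 13 core genes and 7 of 20 regulatory genes were above (44.4% of all genes), and 1 and 7 were below (37.6%).

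The difference of the particles' medians can also be followed in each library. The median core gene exceeded the median regulatory gene in footprints by 0.73 and 0.83 (log2) in WT and by 0.63 and 0.47 in the KO-labelled libraries. In RNA the excess was 1.15 and 1.09 in WT, against 1.32 and 1.27. The groups did not overlap in either measure: the core excess was larger in RNA and smaller in footprints in the KO-labelled libraries. Without the 3 assembly chaperones the footprint excess was 0.54 and 0.69 in WT and 0.60 and 0.29 in the KO-labelled libraries, so that the groups overlapped, whereas in RNA it was 0.99 and 0.91 against 1.08 and 1.12. The separation in footprints thus depended on counting the chaperones.

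In TE the core median minus the regulatory median was 0.41 and 0.00 in WT and -0.83 and -0.65 in the KO-labelled libraries (0.55, 0.23, -0.66 and -0.53 without the chaperones). The core medians were 2.35 and 2.19 in WT and 1.19 and 1.59 in the KO-labelled libraries, all below the median of all tested genes in the same library, which was 2.51 to 2.87. The regulatory medians were 1.77 and 2.18 in WT and 2.11 and 2.49 in the KO-labelled libraries, which overlap, while the median of its gene-by-gene differences was -0.32. The median of a set of differences need not be the difference of medians. Taken gene by gene, the core median lay 0.31 below that of the regulatory genes (-0.31).

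**Figure D4:**
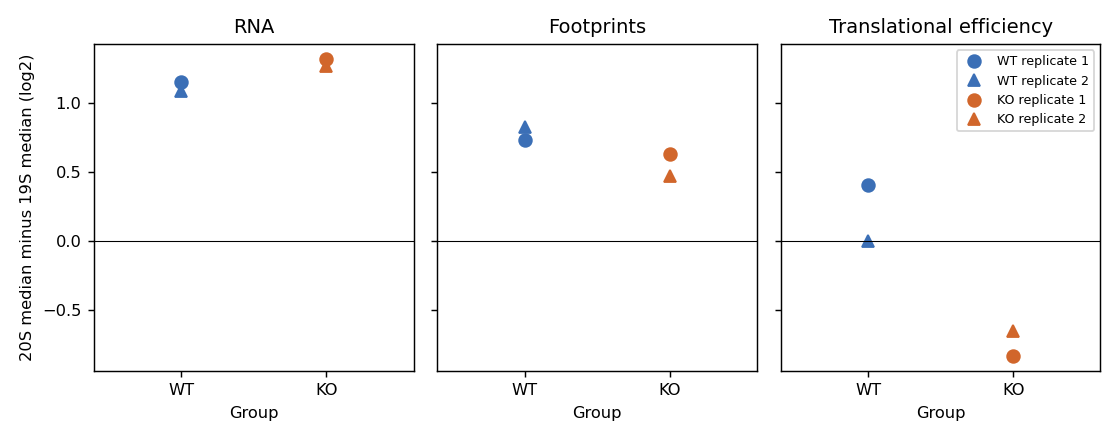
Median of the 13 tested 20S genes minus median of the 20 tested 19S genes in each library, on the log2 scale, for RNA, footprints and TE. In TE the WT libraries are at 0.41 and 0.00 and the KO-labelled ones at -0.83 and -0.65.

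Gene length differed between the particles. The lengths recovered from the steps of the RPKM values had a median of 757 bases for the tested core genes and 1282 bases for the regulatory genes. Recovered lengths can be too small by a whole factor, as for Psma2, Psmb1 and Psmc1 at 234, 396 and 440 bases. Such errors enter the medians, correlations and length classes given here. Across the 33 genes, length and the footprint difference had a Spearman rho of 0.52, and length and the TE difference one of 0.52; across all 6387 genes these were 0.22 and 0.24. With the RNA difference rho was -0.34 across the 33 genes and -0.02 across all genes. The 742 tested genes of 600 to 900 bases had a median footprint difference of -0.32 and a TE difference of -0.37, and the 3858 genes of 900 to 3000 bases had -0.10 and -0.08. The RNA medians of these classes were 0.07 and -0.02. The part of gene length in the difference between core and regulatory genes was not tested.

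**Figure D5:**
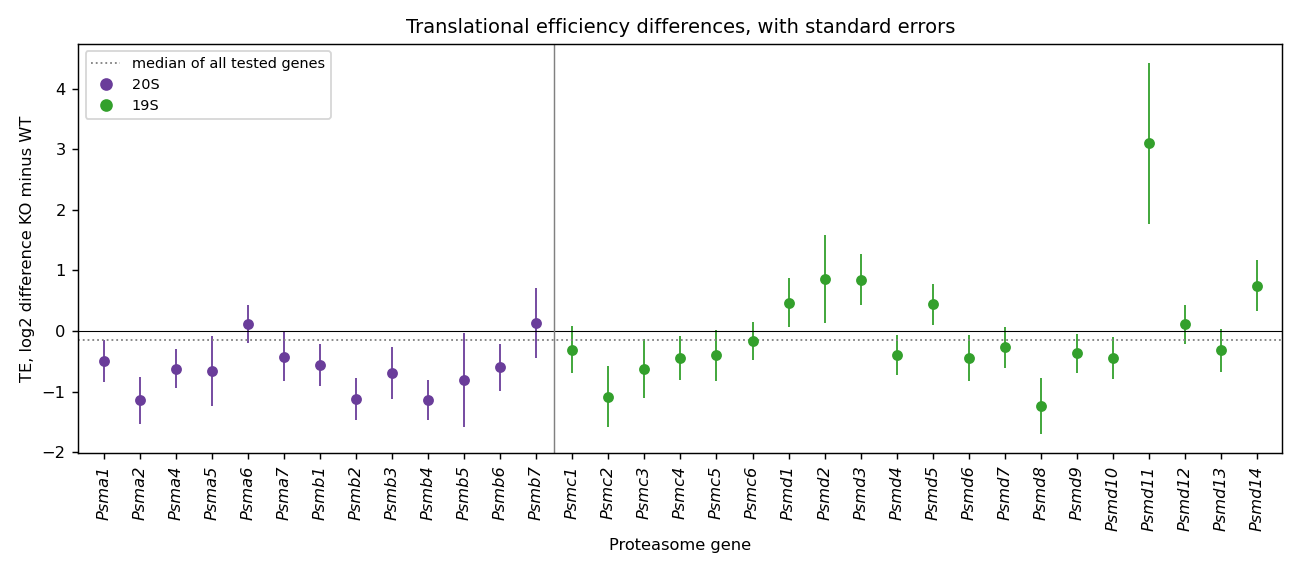
KO minus WT difference in TE (log2) of each of the 33 tested genes, with its standard error; 20S genes are purple, 19S genes green, and the dotted line is the median of all tested genes, -0.15. Of the 13 core genes, 11 lie below 0, where 3805 of all 6387 tested genes do, and Psmd11 stands highest at 3.10.

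Levels of subunits of one particle were far from equal. Over the 14 core genes without Psma8, the coefficient of variation of footprint RPKM was 77.6%, 76.2%, 80.6% and 85%, and that of RNA 67.5%, 67.8%, 70.5% and 71.1%. Over the 17 regulatory genes without the chaperones it was 63.1%, 59.7%, 144% and 60.3% in footprints, where Psmd11 raised KO replicate 1, and 53.6%, 53.1%, 64.7% and 62.3% in RNA. The footprint spread was thus at least as wide as the RNA spread in all libraries for the core and in 3 of 4 for the regulatory particle.

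The highest core footprint level was 16.3, 16.6, 16.4 and 37.3 times the lowest, and the highest core RNA level 28.4 to 34.2 times the lowest. Ranks in footprints hardly followed ranks in RNA: among core genes Spearman's rho was 0.02, 0.05, -0.10 and 0.20, and among regulatory genes 0.30, 0.43, 0.02 and 0.27. The order in footprints was kept between the WT libraries, at 0.97 for the core and 0.88 for the regulatory particle. Between the KO-labelled libraries it was 0.84 for the core and 0.26 for the regulatory particle. These are descriptions across genes that share a library and its depth.

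Several genes were high in a single library. In KO replicate 1, 4 of 33 genes were at least 1.5 times every other library: Psmb7, Psmd2, Psmd11 and Psmd14, where 9.88% of all tested genes were. In KO replicate 2 there were 2, Psmd1 and Psmd3, beside 6.29% of all genes, and in WT replicate 1 there was 1, Psmc2, beside 2.88%. WT replicate 2 had 0, beside 2.57%. The counts lay near the shares over all genes. All of the genes named but Psmb7 belong to the regulatory particle, which holds 20 of the 33 tested genes. The RNA of each varied by at most 1.35-fold over the libraries.

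The authors' deposited table gives a p-value for TE in each gene, in a column headed as adjusted. For Psma2, Psmb2 and Psmb6 its values match an unadjusted one-sided t-test with equal variances on the TE values of the libraries. In that table, 7 of the 35 genes were under 0.05, 6 of 15 core genes and 1 of 20 regulatory genes, beside 20.9% of all 16442 genes. All 7 had a lower mean TE in the KO-labelled libraries. The authors' deposited table lists Psmb2 at 0.000352, Psmb6 at 0.0115, Psma4 at 0.0143, Psmb4 at 0.0266, Psma8 at 0.0308, Psma2 at 0.0376 and Psmd8 at 0.042. None of these passed in TE under limma, where the p is two-sided and adjusted and 0 of 6387 genes were called. The tests are not alike, so their counts cannot be compared directly.

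Promoter sequences were searched for motifs, and 28 of the 35 genes matched the RefSeq promoter table (build GRCm38.p6). A link between motifs and the RNA differences was not tested. The factor known to raise proteasome genes together when the proteasome is inhibited, Nfe2l1, binds the antioxidant response element, whose core was searched as TGACNNNGC on both strands in the 250 bases before the start that the table gives. It was found for 5 of the 28 genes (17.9%), beside 10.2% of all 32851 promoters and 11.6% of those of tested genes. The share of proteasome genes counts each gene once if any of its promoter entries matched. The other shares count promoter entries, of which a gene can have several, so the shares are not strictly alike. The 5 windows are printed 5′ to 3′ on the gene's strand, with the match in capitals:
Psmb5, chr14:54618024-54618052, minus strand: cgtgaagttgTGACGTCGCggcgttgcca
Psmb6, chr11:70525338-70525356, plus strand: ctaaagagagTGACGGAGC
Psmc6, chr14:45329587-45329615, plus strand: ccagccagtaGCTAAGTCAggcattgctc
Psmd9, chr5:123228149-123228177, plus strand: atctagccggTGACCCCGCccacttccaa
Psmd12, chr11:107479278-107479299, plus strand: tctGCTGTGTCAcatttgcccc

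By the RefSeq gene table, Psmb6 begins upstream of that start, so its window lies inside the gene. Of these 5 genes, Psmb6 and Psmc6 rose in RNA and the other 3 did not pass. Counted in the same way, a CCAAT box (CCAAT, both strands) was found for 11 of 28 genes (39.3%), beside 33.8% of all promoters and 35.7% of those of tested genes. An ETS core (CCGGAAG, both strands) was found for 9 of 28 genes (32.1%), beside 6.91% and 15.7% of promoters. The CCAAT windows of the genes with the strongest RNA calls of the core, in both directions, are printed next; Psmb3 and Psma6 each held 2 matches, and the one nearer the start is shown:
Psmb3, chr11:97703381-97703405, plus strand: ggcccgccagCCAATggggaggatt
Psma7, chr2:180042646-180042670, minus strand: ctgcctgtcgCCAATgcgcgctcga
Psma6, chr12:55384183-55384207, plus strand: ccactaggtgCCAATggaattcctg

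Psmb3 and Psma7 rose and Psma6 fell, so a CCAAT box was present in genes of either direction. Of the 8 genes with a promoter entry that rose in RNA, 2 held the antioxidant core, 2 a CCAAT box and 1 the ETS core; of the 3 that fell, 0, 1 and 2 did. The 3 motifs were kept after several had been looked at, and a match of letters is a description, not a binding site.

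The 3 inducible catalytic subunits of the immunoproteasome, which are not among the 35 genes, all rose in RNA: Psmb8 from 61.3 and 61.3 to 140 and 134 RPKM (1.15 ± 0.06, limma adjusted p = 7.44e-06), Psmb9 by 1.11 ± 0.09 and Psmb10 by 0.67 ± 0.10. Over all tested genes 33.1% rose. Their constitutive counterparts Psmb5, Psmb6 and Psmb7 had RNA differences of -0.07, 0.43 and -0.01. Footprints of the 3 inducible genes did not pass, with differences of -0.25, -0.09 and -0.84, and their TE differences of -1.40, -1.20 and -1.51 did not pass either.

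Of 35 related genes on the list (the immunoproteasome, activators, assembly factors, other associated proteins, transcription and processing factors, and ubiquitin genes), 34 were in the table and 26 were tested, and 0 passed in footprints or in TE. Over all tested genes 1.03% passed in footprints and 0% in TE, and in RNA 33.1% rose and 27.7% fell. Among activators and the inhibitor, RNA of Psme1 (0.73 ± 0.07) and Psme4 (0.57 ± 0.10) rose, 2 of 4 tested. Pomp, the factor that matures the core, rose in RNA by 0.53 ± 0.06, and Psmg1 did not pass (0.08 ± 0.11).

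Of the 5 tested proteins associated with the 19S, Ecpas (0.98 ± 0.09) and the ubiquitin ligase Ube3c (0.38 ± 0.09) rose in RNA and the deubiquitinase Usp14 fell (-0.35 ± 0.07). Sem1, a small lid subunit that the name pattern does not take in, had the largest footprint difference here, at 3281, 3672, 1099 and 1320 RPKM (-1.53 ± 0.27), which did not pass (limma adjusted p = 0.099), with RNA at 88.8, 90.4, 87.7 and 90.8 RPKM. Of the 3 tested transcription and processing genes, Nfe2l2 (-0.61 ± 0.07) and the protease Ddi2 (-0.47 ± 0.09) fell in RNA, and Nfe2l1 did not pass (-0.13 ± 0.09). For both lists, the shares over all tested genes were 33.1% that rose and 27.7% that fell.

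Among the tested ubiquitin and delivery genes, RNA of Ubb rose (0.35 ± 0.09), and genes whose RNA fell included Ubqln1 (-1.06 ± 0.11), Ubqln4 (-0.68 ± 0.09), Vcp (-0.42 ± 0.06) and Uba1 (-0.23 ± 0.07). In KO replicate 1 alone, Psme3 reached 1047 RPKM in footprints against 64, 65.5 and 100 RPKM in the other libraries, Nfe2l1 182 against 27.1, 32.6 and 35.3, and Ubqln4 166 against 7.01, 13.6 and 6.12. The library in which Psmd11 was high was thus high for these genes as well.

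RNA of marker genes of other cell types moved with the labels. The counts of markers without overlap, here and in the next paragraph, stand beside shares over all tested genes. Of these, 44.4% were higher and 37.6% lower in both KO-labelled libraries. Summed over the 8 mast cell, basophil and eosinophil markers in the table, RNA was 40.8 to 43.3 RPKM in WT and 497 to 514 RPKM in the KO-labelled libraries, with 6 of 8 markers higher and 1 lower without overlap. The 6 T and NK cell markers summed to 17.2 to 17.3 against 364 to 434 RPKM (5 of 6 higher), and the 7 erythroid markers to 76.4 to 84.6 against 421 to 514 RPKM (5 of 7 higher, 1 lower).

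The 9 myeloid differentiation markers summed to 13291 to 13945 RPKM in WT against 4262 to 4826 RPKM (1 higher, 6 lower), and the 9 haematopoietic and progenitor markers to 10089 to 10285 against 8214 to 9174 RPKM (5 higher, 4 lower). The 4 megakaryocyte markers summed to 1.15 to 1.64 against 20.8 to 22.2 RPKM (2 higher), the 3 stroma markers to 1.24 to 1.48 against 23.7 to 26.7 RPKM (2 higher) and the 2 B cell markers to 40.5 to 43 against 26.4 to 28.3 RPKM (1 higher, 1 lower). Of all these markers, 0 were under 0.1 RPKM in every library. The part of cell composition in the RNA changes of proteasome genes was not tested, and in such bulk samples fewer cells of a type and less RNA per cell cannot be told apart.

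The RNA calls themselves depended on each library. This was not particular to proteasome genes: over all tested genes too, leaving out a WT library gave fewer RNA calls than leaving out a KO-labelled one. Of the 13 proteasome genes called, 8 were kept without WT replicate 1 and 6 without WT replicate 2. In the 19S the calls went from 6 to 3 and 1 in these fits, with Psmc5 the last kept. Leaving out a KO-labelled library moved the balance instead, to 7 higher and 10 lower without replicate 1 and to 15 higher and 2 lower without replicate 2. Psma6, Psma7, Psmb3, Psmb4, Psmb6 and Psmc5 kept their call in every fit run.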

How the data were processed

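Ribosome footprints and input RNA of 4 libraries were read from 1 deposited table. The submitters' processing notes name CASAVA, HISAT2 2.1.0, featureCounts and DESeq2 without their roles, and as build hg38, which is human, although samples and symbols are mouse. No annotation is named. The deposited footprint columns hold RPKM with 1 added, a unit read from the values. Per the file headers TE is a ratio; dividing footprints by it gave the input RNA level. The deposited p-value is headed as adjusted, with no method stated. For Psma2, Psmb2 and Psmb6 it matches an unadjusted one-sided t-test on the TE values.

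Whole footprint reads, and the assigned reads of each library (878068, 656249, 364087 and 274183), were recovered from the RPKM steps within 0.002 reads, for 10536 genes with footprints in at least 2 libraries (100%). Recovered lengths and reads can be too small by a common whole factor (as for Psma2, Psma3, Psmb1 and Psmc1, at 234 to 440 bases), without effect on ratios between libraries. Input reads were not recovered, so TE was not tested on counts.

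The test was limma 3.58.1 (R 4.3.3) on log2(RPKM + 1) with a trended prior variance and group as the only term, over genes that reached a CPM (recovered reads scaled to assigned reads) of 20 in at least 2 libraries, with a two-sided p and Benjamini-Hochberg adjustment at 0.05. TE was fitted as the difference of log2 values. Recovery and fits were tested on simulated data. Python 3.11.15 was used for the rest.

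The 35 genes and all lists were chosen with earlier results of these data known. Named genes were fixed by role (catalytic subunits, deubiquitinase, receptor, scaffolds, chaperones, Psma8), by the 2 largest differences per particle and measure, and by the highest and lowest footprint means; other members are named to account for all 35, and those and the related genes with values were picked after their values were seen. The series calls the replicates biological without naming animals, and the p-values reflect only how far these 4 libraries spread. Same-numbered WT and KO libraries deviated together with a correlation of 0.0224 in footprints, -0.335 in RNA and 0.0082 in TE, so numbers were not used as pairs. Alternatives were pseudocounts of 5 and 0.5, no filter, CPM of at least 50, RPKM of at least 10 (added after seeing the data), median centring, quantile normalization, limma-voom with TMM on recovered reads, each library left out, and replicate blocks.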

Additional observations from a re-analysis of the deposited data

How the results depend on the processing

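With quantile normalization, which moved the median of all tested genes from -0.13 to -0.02 in footprints and from -0.15 to -0.00 in TE, the median footprint difference was -0.20 for the 20S and 0.05 for the 19S, the median RNA difference of the 20S was 0.05, and the difference of medians in RNA was 0.10 (0.21 as reported). That difference was 0.16 with no filter, 0.25 with CPM of at least 50 and 0.16 with RPKM of at least 10. With no filter 3 genes of the 19S passed in RNA, where 6286 of all 16442 genes passed. The RNA difference of Psmb7 turned from -0.01 to 0.00 with median centring and 0.01 with quantile normalization. The mean coefficient of variation of core footprints (79.8%) was 66.8% with CPM of at least 50 and 74.8% over tested genes, that of core RNA (69.2%) was 64.7% with CPM of at least 50, and that of 19S RNA (58.4%) was 66.3% with the chaperones. The causes were not tested.

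Leaving out each library in turn, footprint calls ranged from 0 to 1 in the 20S and from 0 to 2 in the 19S, TE calls of the 19S from 0 to 2, and RNA calls of the 19S from 1 to 9. The ranges of the medians were -0.18 to -0.03 for 19S footprints, 0.08 to 0.27 for 20S RNA, -0.12 to 0.06 for 19S RNA and -0.35 to -0.10 for 19S TE, and that of the difference of medians in footprints -0.37 to -0.21. Only genes chosen by role or by the largest differences were followed singly, each in the measures for which it was chosen. Genes not followed can turn as well: Psma7 footprints lay below both WT libraries in KO replicate 1 and above both in KO replicate 2. Among those followed, genes whose sign turned in footprints were Psmb5 (-1.81 to 0.04), Psmb7 (-0.79 to 1.01), Psmd1 (-0.12 to 0.67) and Psmd2 (-0.50 to 1.50). In RNA they were Psmb5 (-0.22 to 0.08), Psmb7 (-0.15 to 0.12), Psmd9 (-0.12 to 0.03) and Psmd10 (-0.23 to 0.04). In TE they were Psmb7 (-0.64 to 0.89) and Psmd2 (-0.16 to 1.88).

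With the replicate number as a block, 6 genes of the 20S and 4 of the 19S passed in RNA, and 0 in footprints and TE, as without it. The same-numbered RNA libraries correlated below 0, and a crossed replicate block, chosen after seeing this, called 7 and 12 in RNA. Over all 6387 tested genes, RNA calls were 3880 with group alone, 3479 with the block and 4391 with the crossed block. All other alternatives listed, limma-voom on recovered reads among them, called 0 members in footprints and, where fitted, 0 in TE. Over all tested genes, footprint calls went from 66 to 0 with no filter and without either WT library, to 327 without KO replicate 1 and to 1085 without KO replicate 2; TE calls went from 0 to 148 and 698 in the last 2. Depth limits the KO-labelled footprints most, where the median proteasome gene had 40 to 50 reads. Low counts of called genes in footprints do not show that footprints were equal.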
